A study of Homo sapiens with 12 samples.

Results

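The genes described here are 40 listed targets, relatives and regulators of the tumour suppressor p53, taken by name from the expression table of senescent and non-senescent EndoC-βH3 cells. CDKN1A and the BCL2-family and death-receptor targets were left out of the list on purpose. All 40 were among the 35337 rows of the table, and 36 of them were among the 13847 genes whose normalised read counts averaged 5 or more over the 12 samples, which were tested. EndoC-βH3 is a human line with beta-cell traits, made from fetal pancreas and immortalised with hTERT and the SV40 large T antigen. A CreER recombinase in the line excises both transgenes once tamoxifen is given, and the promoter that drives it is not given in the sources used here. The 6 senescent samples were treated with 4-hydroxytamoxifen for 3 weeks. The 6 non-senescent samples are labelled as controls, and the labels give the genotype of all 12 as WT. Nothing in the labels says whether the controls received vehicle, or whether replicates came from separate cultures, so p-values measure the spread between these samples only. Each group had 2 samples in batch A and 4 in batch B, which the study's methods call independent batches.

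p53 is a transcription factor that cells activate upon DNA damage and other stresses. It binds DNA as a tetramer at a pair of short arms, and its targets include inhibitors of the cell cycle, repair factors, regulators of metabolism and genes of cell death. Its ubiquitin ligase MDM2 and its phosphatase PPM1D are themselves targets, which closes a feedback loop. Large T antigen binds p53 and keeps it from activating transcription, so the question asked of these genes was what happened to them once the antigen had been removed.

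Possible p53 sites, judged by their letters alone, were read from the GRCh38 genome within 2000 bases on either side of each GENCODE gene start. A site was a pair of 10-base p53 arms with 0 to 13 bases between them, each arm with the fixed C and G of the p53 consensus. The closest match of each gene is scored by its mismatches to the consensus over the 20 arm bases. The 6 members that were called higher in senescent cells and had a site with at most 2 mismatches are shown first. The sequences run 5′ to 3′ on the gene's strand, capitals mark the arms and lower case the bases between them. The GENCODE start of GDF15 lies 11427 bases before its RefSeq start, so the GDF15 site is at position -12211 from the RefSeq start and outside a window of this size around it.

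GDF15, chr19:18373947-18373966, 1 mismatch: AGACCTGCCCGGACATGTCC

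AEN, chr15:88621306-88621325, 2 mismatches: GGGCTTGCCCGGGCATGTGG

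BTG2, chr1:203303642-203303661, 2 mismatches: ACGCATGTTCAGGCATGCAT

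SPATA18, chr4:52051957-52051976, 2 mismatches: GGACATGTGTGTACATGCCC

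SESN1, chr6:109095699-109095723, minus strand, 2 mismatches: GGACTAGTCCttcccACGCAAGTCA

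PERP, chr6:138106561-138106586, minus strand, 2 mismatches: AGGCTAGTTCttgttaGCTCTTGTTC

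Members that were not called had sites as close or closer. They are shown beside the first set because the pooled comparison made no call for these genes.

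DDB2, chr11:47214979-47214999, 0 mismatches: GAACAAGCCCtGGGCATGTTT

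CCNG1, chr5:163437926-163437945, 1 mismatch: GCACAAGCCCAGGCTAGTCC

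GADD45A, chr1:67686775-67686794, 1 mismatch: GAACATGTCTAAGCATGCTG

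MDM2, chr12:68808923-68808942, 2 mismatches: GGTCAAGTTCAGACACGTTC

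PPM1D, chr17:60600237-60600260, 2 mismatches: GGCCCAGCTCtcgcGGACAAGTCC

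A site with at most 1 mismatch lay in this window of 6 of the 40 members (15%) and of 5.75% of the 20018 starts of protein-coding genes. With at most 2 mismatches the shares were 47.5% of the members and 32.6% of all starts. At most 1 mismatch was found for 1 of the 14 members called higher (GDF15, with the start taken from GENCODE). It was also found for 4 of the 21 that were tested and not called (DDB2, APAF1, CCNG1 and GADD45A). At most 2 mismatches were found for 6 of the 14 (42.9%) and for 10 of the 21 (47.6%). In the RefSeq promoter windows of GRCh38.p14, from 250 bases before to 50 after a start, 36 members had a sequence. An exact p53 arm was in 5 of these (13.9%) and in 6.54% of 27305 promoters. A pair of arms with at most 3 mismatches was in 7 (19.4%) and in 12.7%. Such a pair was in 4 of 12 promoters of members called higher (33.3%) and in 2 of 19 of members not called (10.5%). These counts are small, and their order depends on the window and the number of mismatches allowed. A match describes the letters only.

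RNA was read at the 3′ end of poly(A) transcripts by CEL-seq2, and values are read numbers per gene divided by the size factor of the library, called normalised read counts here. Libraries held 8873569 to 17106776 reads in batch A and 4672924 to 7063264 in batch B, so 1 read was worth more in B and low members were measured less precisely per library there. All 10 beta-cell markers were tested, 5 of them called higher and 1 lower. They summed to 516592 to 644367 normalised read counts in non-senescent and 659456 to 852442 in senescent libraries. Most of this sum was CHGA, with a mean of 599596, so the sum says little about the other markers. The delta-cell hormone SST was also abundant, with a mean of 167406 normalised read counts. The summed ductal and acinar markers were apart between the groups. Those of the alpha and delta, mesenchymal and immune lists overlapped. The ductal list, of which only KRT19 was tested and called lower, held 249.5 to 380.2 normalised read counts per non-senescent and 80.4 to 162 per senescent library. The acinar list, of which only CPA1 was tested and called higher and RBPJL had no reads, held 36.6 to 65.8 and 145 to 255. Of the alpha and delta list 7 of 8 markers were tested, and 4 were called lower and 1 higher, with a median log2 fold change of -0.64. Its sum, most of it SST, was 212391 to 412039 normalised read counts in non-senescent and 286992 to 364548 in senescent libraries. The mesenchymal list, with 3 of 8 tested and 0 called, held 37.4 to 171 and 29.6 to 91.6, and the immune list, with 2 of 6 tested and 1 called lower, 23.8 to 51.1 and 18.0 to 42.0. PDGFRB and CD3E had no reads. All samples are of the EndoC-βH3 line, so reads from these lists do not show that other cell types were present. The part of these markers in the results below was not tested. Fewer cells of a type cannot be told apart from less RNA per cell.

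Senescent cells expressed several p53 targets more highly, while most tested members were not called. Of the 36, 14 were called higher and 1 lower, where a call needs a change of more than 1.5-fold with a limma adjusted p under 0.1, and 21 were not called. Over all 13847 genes, 11.6% were called higher and 11.8% lower. The median log2 fold change of the tested members was 0.39, against 0.01 over all genes, and 28 of the 36 had a positive value (77.8%, against 51.1%). The members called higher were SPATA18, GDF15, PHLDA3, SESN1, BTG2, SESN3, RRM2B, CDIP1, TP53I3, AEN, ZMAT3, PERP, RPS27L and SESN2, with log2 fold changes from 3.23 down to 0.61. The lower member was TP73. With every library scaled to the same total, 11 members were called higher and 3 lower, and over all genes the split was 1226 higher and 2090 lower in place of 1605 and 1632. SPATA18 passed the filter on low values through its senescent libraries only and TP73 through its non-senescent ones only, so counts over tested members are descriptions.

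**Figure D1:**
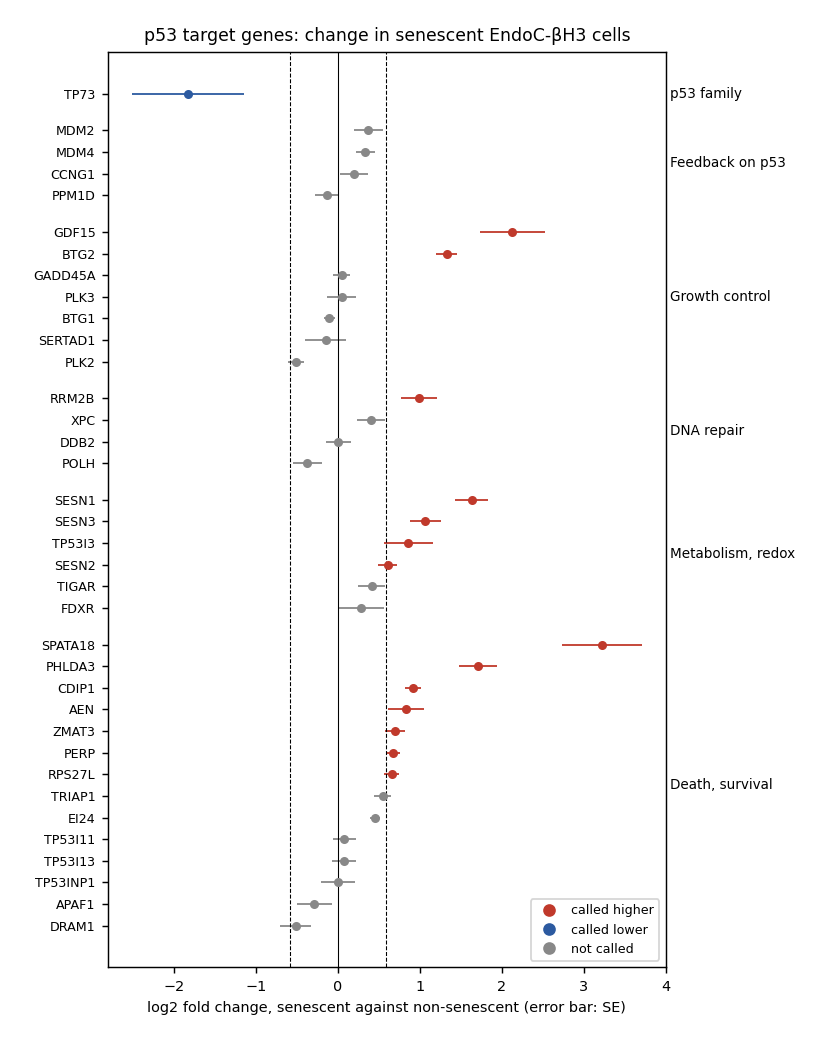
Log2 fold change of each tested member in senescent against non-senescent cells (x axis, error bar SE, 6 samples per group) with the members in rows by role. Dashed lines mark a fold change of 1.5, and the 14 members called higher, in red, lie mostly among the death and metabolism genes, while all 4 feedback genes, in grey, were not called.

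Members with roles in cell death and survival formed the largest group. Of 14 tested, 7 were called higher and none lower, with a median log2 fold change of 0.60. Over all genes 11.6% were called higher and 11.8% lower, and the counts by role are descriptions of small groups. SPATA18, which encodes a protein of mitochondrial quality control (chr4:52051304-52097299), had 0 to 2 reads in each non-senescent library and 9 to 26 in each senescent one. Its level was 6.28 and 6.64 normalised read counts in the senescent samples of batch A, and 31.5, 9.45, 14.9 and 22.4 in those of batch B. No non-senescent sample exceeded 2.75. Summed over libraries, 4 reads stood against 91, a rate ratio of 18.4 with an exact 95% interval of 6.95 to 69.0 for counting error only. On the log2 scale this was a difference of 3.23 ± 0.49 (SE, limma adjusted p 5.51e-05). SPATA18 passed the filter on low values through the senescent group, where it is high, so its call is given as a description.

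PHLDA3, an inhibitor of AKT signalling (chr1:201464278-201469237), rose from a mean of 20.4 ± 14.2 to one of 60.4 ± 32.7 normalised read counts (SD, n = 6), or by 1.71 ± 0.23 in log2 units (SE, limma adjusted p 1.68e-05). In batch A it was 2.22 and 5.56 in non-senescent and 19.3 and 18.7 in senescent samples. In batch B the 4 non-senescent samples had 25.6, 39.9, 27.8 and 21.1 and the senescent ones 75.1, 90.3, 73.3 and 85.9. Groups were apart in both batches, although the senescent level of batch A was under the non-senescent level of batch B. CDIP1, a pro-apoptotic protein (chr16:4510669-4538828), was apart over both batches together. It went from a mean of 320.5 ± 42.0 to one of 607 ± 56.7 normalised read counts (SD, n = 6), or 0.92 ± 0.10 on the log2 scale (SE, limma adjusted p 9.22e-07), and all 6 senescent samples, at 534 to 693, were above all 6 non-senescent ones, at 272 to 365.

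PERP encodes a desmosomal membrane protein that can promote apoptosis (chr6:138088505-138107419). It rose from a mean of 255.5 ± 7.01 to one of 411 ± 45.8 normalised read counts (SD, n = 6), or 0.68 ± 0.09 on the log2 scale (SE, limma adjusted p 8.38e-06). The batches gave 0.71 (A) and 0.66 (B). Non-senescent samples lay between 244 and 264 in both batches, and senescent ones between 357 and 480.3. RPS27L, a ribosomal protein paralog (chr15:63125872-63158021), rose by 0.66 ± 0.09 (log2 ± SE, adjusted p 2.17e-05), from 839.8 ± 134 to 1377 ± 429.5 (SD, n = 6). RPS27L resembles RPS27, and the division of reads between such copies makes its level uncertain. The other 2 called members of this group were AEN, a nuclease that takes part in apoptosis, and ZMAT3, an RNA-binding regulator of splicing, whose log2 fold changes were 0.84 ± 0.22 and 0.70 ± 0.13 (SE). Both rested on batch B, as described below.

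The other 7 tested members of the group did not pass both limits. EI24, of the endoplasmic reticulum, and TRIAP1, a mitochondrial survival factor, were higher in every senescent sample than in any non-senescent sample of their batch, with log2 fold changes of 0.46 ± 0.06 and 0.55 ± 0.10 (SE, adjusted p 2.43e-05 and 0.000414), which are under the fold change limit. TRIAP1 passed it without non-senescent A2 or senescent A1 (0.61 each). DRAM1, a lysosomal regulator of autophagy, had a value of -0.51 ± 0.19 (adjusted p 0.0417), and passed the limit with equal library totals (-0.62) and without non-senescent or senescent A1 (-0.61 each). In batch B its 4 senescent values of 42.3 to 61.8 normalised read counts lay under the non-senescent 78.5 to 109.6, while in batch A both groups lay between 13.9 and 17.5. APAF1, the scaffold of the apoptosome, had a log2 difference of -0.29 ± 0.22 (adjusted p 0.317). TP53INP1, which links p53 to autophagy, and the p53-inducible proteins TP53I11 and TP53I13 had values of 0.00, 0.08 and 0.07, with 95% intervals inside the fold change limit. For TP53INP1 this averages batches of opposite sign. It was at 446 and 495 normalised read counts in non-senescent and 312 and 319 in senescent samples of batch A, where the groups were apart (log2 fold change -0.57, limma adjusted p 0.281 in the nested fit and 0.00515 in a fit of batch A alone). In batch B the value was 0.29 and the groups overlapped, and the difference between batches did not pass its test (adjusted p 0.324).

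**Figure D2:**
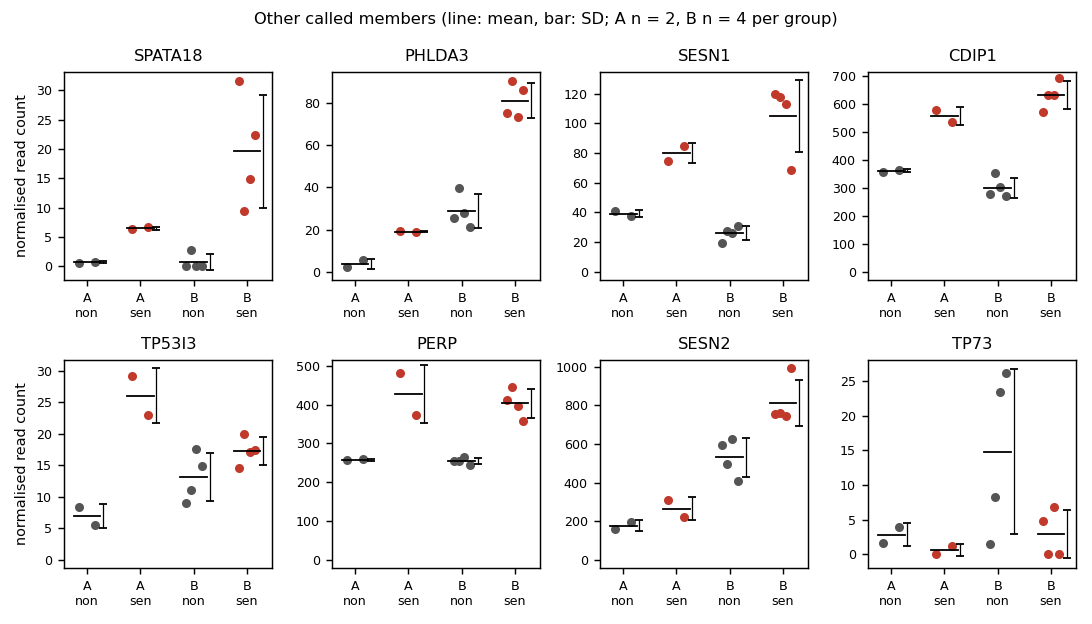
Normalised read counts per sample of 8 called members whose response was not found to differ between batches, for non-senescent (grey) and senescent (red) samples of batches A (n = 2 per group) and B (n = 4 per group), with the mean as a line and the SD as a bar. SPATA18, PHLDA3, SESN1, CDIP1, PERP and SESN2 are higher in every senescent sample than in the non-senescent samples of the same batch, while TP53I3 and TP73 overlap in batch B.

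Members that act in metabolism and redox balance were called higher in 4 of 6 cases, against 11.6% of all genes. Their median log2 fold change was 0.74. All 3 sestrins, stress proteins that restrain mTORC1, were called higher. SESN1 (chr6:108984309-109094846) had the largest change of them, 1.63 ± 0.21 (log2 ± SE, adjusted p 7.33e-06). It was 41.1 and 37.4 normalised read counts in non-senescent and 75.0 and 84.6 in senescent samples of batch A. The corresponding values in batch B were 19.6, 27.5, 26.3 and 31.1, and 120.0, 118, 113 and 68.5. Groups did not overlap in either batch. SESN3 (chr11:95165513-95232541) rose by 1.07 ± 0.19 (adjusted p 0.000252) and SESN2 (chr1:28259518-28282491) by 0.61 ± 0.12 (adjusted p 0.000656). SESN2 ranged from 157 to 624 normalised read counts in non-senescent samples, with a median of 451, and from 222 to 994 in senescent ones, with a median of 751. It stood just over the fold change limit and was under it in several alternatives.

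TP53I3, a quinone oxidoreductase (chr2:24077433-24085861), was called with a log2 difference of 0.86 ± 0.29 (SE, limma adjusted p 0.0280) at a low level of 11.1 ± 4.44 against 20.2 ± 5.24 normalised read counts (SD, n = 6). In batch A it went from 8.34 and 5.56 to 29.2 and 22.9, and in batch B from 9.03, 11, 17.5 and 14.9 to 14.5, 19.9, 17.2 and 17.4, where the groups overlapped. Within batches the log2 difference was 1.78 (A) and 0.40 (B), with an adjusted interaction p of 0.211. TIGAR, which lowers glycolytic flux, had a value of 0.41 ± 0.16 (adjusted p 0.0556), under the fold change limit. FDXR, a mitochondrial reductase, had 0.28 ± 0.28 (adjusted p 0.458) at 5.84 to 13.7 normalised read counts per sample.

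Members with roles in growth control were split. Of 7 tested, GDF15 and BTG2 were called higher and 5 were not called, with a group median of 0.05. Of all genes 11.6% were called higher. GDF15, a secreted stress cytokine (chr19:18374731-18389176), rose from a mean of 7.70 ± 2.08 to one of 45.9 ± 29.4 normalised read counts (SD, n = 6), or 2.13 ± 0.40 on the log2 scale (SE, limma adjusted p 0.000382). BTG2, an antiproliferative regulator of mRNA decay (chr1:203305491-203309602), rose from 258 ± 206 to 804 ± 835 (SD, n = 6), which is 1.33 ± 0.13 in log2 units (SE, limma adjusted p 2.48e-07). GADD45A, a growth-arrest gene long used as a p53 reporter, was at 316 to 478 normalised read counts in non-senescent and 306 to 492 in senescent samples. Its log2 fold change was 0.05 ± 0.10 with a 95% interval of -0.17 to 0.27, which lies within the fold change limit. BTG1, a relative of BTG2, had -0.10 (interval -0.25 to 0.04), and the stress kinase PLK3 and the cyclin-dependent kinase regulator SERTAD1 had 0.05 and -0.15. PLK2, a polo-like kinase, was lower in all senescent samples of both batches, at 379 and 438 against 685 and 761 normalised read counts in batch A and at 245 to 285 against 322 to 387 in batch B. Its log2 fold change of -0.51 ± 0.10 (adjusted p 0.000550) was under the fold change limit in the fit of both batches, and past it with equal library totals (-0.61), with array weights (-0.60) and in batch A alone (-0.82).

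Repair genes were called in 1 of 4 cases, where 23.4% of all genes were called in either direction. RRM2B, a ribonucleotide reductase subunit that supplies deoxynucleotides outside S phase, rose from a mean of 69.7 ± 18.2 to one of 156 ± 77.1 normalised read counts (SD, n = 6), or 0.99 ± 0.22 on the log2 scale (SE, limma adjusted p 0.00184). The damage sensors of nucleotide excision repair, XPC and DDB2, had log2 fold changes of 0.40 ± 0.17 (adjusted p 0.0727) and 0.01 ± 0.15 (adjusted p 0.977). For DDB2, whose site near the start matched the p53 consensus in full, the pooled 95% interval of -0.31 to 0.32 lay within the fold change limit. This averages batches of opposite sign. The log2 fold change was -0.36 ± 0.23 (SE) in A, where the groups were apart, and 0.19 ± 0.17 in B, where they overlapped. POLH, a translesion polymerase, had -0.37 ± 0.17 (adjusted p 0.103).

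None of the 4 feedback genes was called, where 23.4% of all genes were. PPM1D, the phosphatase that switches p53 signalling off (chr17:60600193-60666280), was at 103 and 103 normalised read counts in non-senescent and 114 and 96.6 in senescent samples of batch A. In batch B it was at 66.3, 118, 78.9 and 93.2, and at 69.1, 71.4, 89.3 and 72.2. The groups overlapped in both, and the log2 fold change was -0.13 ± 0.15 (adjusted p 0.521, 95% interval -0.44 to 0.18). MDM4, which binds and inhibits p53 (chr1:204516379-204558120), was at 312 and 312 in non-senescent and 295 and 319 in senescent samples of batch A. In batch B it was at 385, 343, 317 and 242, and at 429, 484, 426 and 486, where the groups were apart. Its log2 fold change was 0.34 ± 0.12 (adjusted p 0.0323), under the fold change limit. CCNG1, a cyclin that recruits a phosphatase to MDM2, had 0.20 ± 0.17 (adjusted p 0.395) and varied widely within groups, from 217 to 424 normalised read counts in non-senescent and from 219 to 464 in senescent samples.

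MDM2, the ubiquitin ligase that degrades p53 (chr12:68808177-68845544), moved in opposite directions in the batches. In batch A it was higher in non-senescent samples, at 319 and 336 normalised read counts, than in senescent ones, at 223 and 264. In batch B it was lower in non-senescent samples, at 113, 105, 108 and 102, than in senescent ones, at 185, 146, 215 and 197. In the nested fit the log2 fold changes were -0.43 ± 0.18 in A (adjusted p 0.126) and 0.78 ± 0.13 in B (adjusted p 0.000191). Limma fits of each batch alone gave adjusted p of 0.0288 (A) and 0.00251 (B). The difference of 1.21 passed the interaction test (adjusted p 0.00847). The pooled value of 0.38 ± 0.17 (adjusted p 0.101) was not called. Non-senescent samples of A held 3.06 times the level of those of B, which is a larger gap than that between the groups in either batch.

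Of the 2 relatives of p53, TP73 was the only tested one and the only member called lower. It passed the filter on low values through the non-senescent group, where it is high, so its call is given as a description. It fell by 1.83 on the log2 scale (SE 0.68, adjusted p 0.0425), from 10.8 ± 11.1 to 2.15 ± 2.98 normalised read counts (SD, n = 6). The non-senescent samples had 1.67 and 3.97 in batch A and 1.51, 8.26, 23.4 and 26.1 in batch B. The senescent samples had 0 and 1.21, and 4.85, 0, 6.87 and 0. The groups overlapped in batch B, no library held more than 21 reads, and the call was lost in either batch alone and without non-senescent replicate B3 (-1.56) or B4 (-1.53). TP63 had 1 read in 1 non-senescent and in 1 senescent library.

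The other 3 members under the filter were GADD45B, a stress-induced relative of GADD45A, and the receptors EPHA2 and EDA2R. GADD45B had 1 to 8 reads per non-senescent and 0 to 18 per senescent library, with the highest numbers, 18 and 17, in the senescent samples of batch A. In sum, 21 reads stood against 46, a rate ratio of 1.77 (exact 95% interval 1.04 to 3.13, counting error only). EPHA2 had reads in 1 library of each group, 2 and 3. EDA2R had no reads in non-senescent libraries, and 3 and 1 in 2 senescent ones. A library without reads allows up to 3, and a difference in EPHA2, EDA2R or TP63 was not detectable at this depth.

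Batch B gave the larger response of the members. In a fit with the group effect nested in batch, 7 members were called higher and 1 lower in A, where 8.17% of all genes were called higher and 7.76% lower. In B, 16 were called higher and 2 lower, against 13.1% and 13.3% of all genes. Batch A has fewer samples. The median log2 fold change of the tested members was 0.13 in A and 0.49 in B, against 0.00 and 0.01 over all genes. The other Hallmark p53 genes did not share this order, with a median of 0.18 in A and 0.15 in B, and batches fitted alone called 46 and 38 of them, against 8 and 17 members and 3241 and 3327 of all genes. Signs in A and B were the same for 28 of 36 members (77.8%, against 70.6% of all genes), and Pearson's r of both responses across the 36 members was 0.63, a description over genes measured in the same libraries. All 14 members called higher had positive values in both batches. They were chosen by the fit of both batches, so these signs are no independent support. In A the values ran from 0.02 (AEN, SE 0.29) to 2.16 (SPATA18, SE 0.78). Groups were apart in the same direction in both batches for 10 members with senescent samples higher, 8 of them called, and for PLK2 with senescent samples lower, where 11.9% of all genes were apart in each direction.

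**Figure D3:**
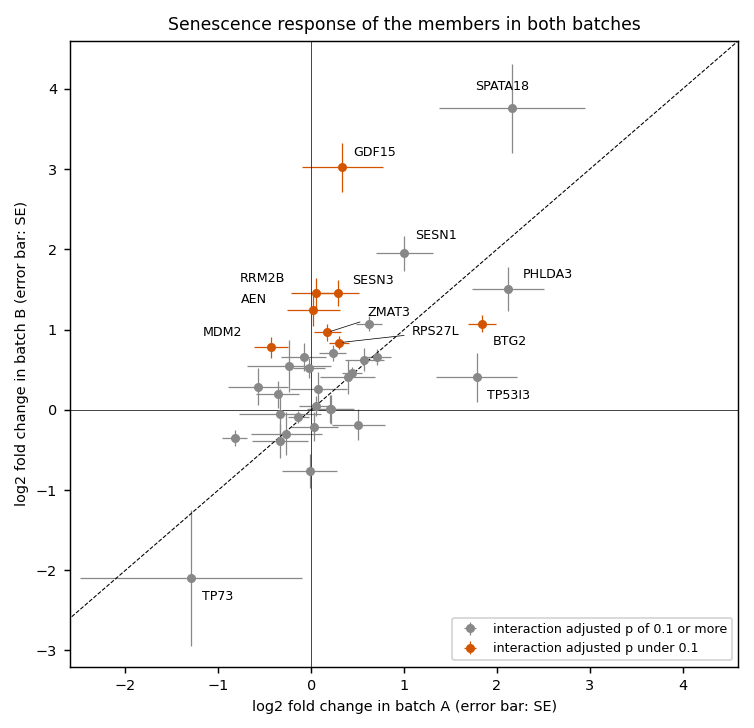
Log2 fold change of each tested member in batch A (x axis) and in batch B (y axis), with SE bars and the line of equal response dashed. The 8 members in orange passed the interaction test, and of these only BTG2 lies under the line, while MDM2 has a negative value in A and a positive one in B.

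The test of a difference in response between batches was passed, at an adjusted p under 0.1, by 8 members and by 4.21% of all genes. Besides MDM2 they were GDF15, RRM2B, AEN, SESN3, ZMAT3, RPS27L and BTG2, and the response was larger in B for 7 of the 8. For GDF15 the log2 fold change was 3.02 in B and 0.33 in A (difference 2.69, adjusted p 0.0136). Its senescent samples had 41.2, 66.1, 56.1 and 85.9 normalised read counts in B against 5.84 to 8.26 in non-senescent ones, but 16.6 and 9.66 in A against 11.1 and 8.74. The rise of GDF15 was thus seen in B, and the groups overlapped in A.

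RRM2B, AEN and ZMAT3 had a like pattern. RRM2B was at 61.1 and 58.0 normalised read counts in senescent and 50.6 and 65.2 in non-senescent samples of A, but at 181 to 235 against 49.7 to 96.4 in B. The log2 fold changes were 0.05 and 1.46 (adjusted interaction p 0.0347). AEN overlapped in A, with 50.7 and 52.5 in senescent and 51.7 and 50.1 in non-senescent samples, and in B it went from 21.1 to 31.7 up to 55.6 to 76.3 (log2 fold changes 0.02 and 1.24, adjusted interaction p 0.0865). ZMAT3 reached 349 to 369 in senescent samples of B from 168 to 206, but was at 196 and 233 against 179 and 199 in A (0.17 and 0.96, adjusted interaction p 0.0308).

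SESN3 and RPS27L also had the smaller log2 difference in A, 0.28 against 1.46 (adjusted interaction p 0.0443) and 0.30 against 0.84 (adjusted interaction p 0.0522). Senescent samples of SESN3 were alike in both batches, at 157 to 188 normalised read counts in A and 139.5 to 187 in B, whereas non-senescent ones were at 117 and 170.1 in A and 53.4 to 74.3 in B. BTG2 went the other way, by 1.84 (A) and 1.07 (B), with an adjusted interaction p of 0.0426. It went from 509 and 538 to 1940.2 and 1820.2 normalised read counts in A and from 107 to 139 up to 236 to 306 in B, so it rose in both. The interaction calls rest on the 4 libraries of batch A: without any 1 of them, 2 to 5 members passed. MDM2 passed in all 12 fits that left out a library, with adjusted p from 0.00315 to 0.0889.

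**Figure D4:**
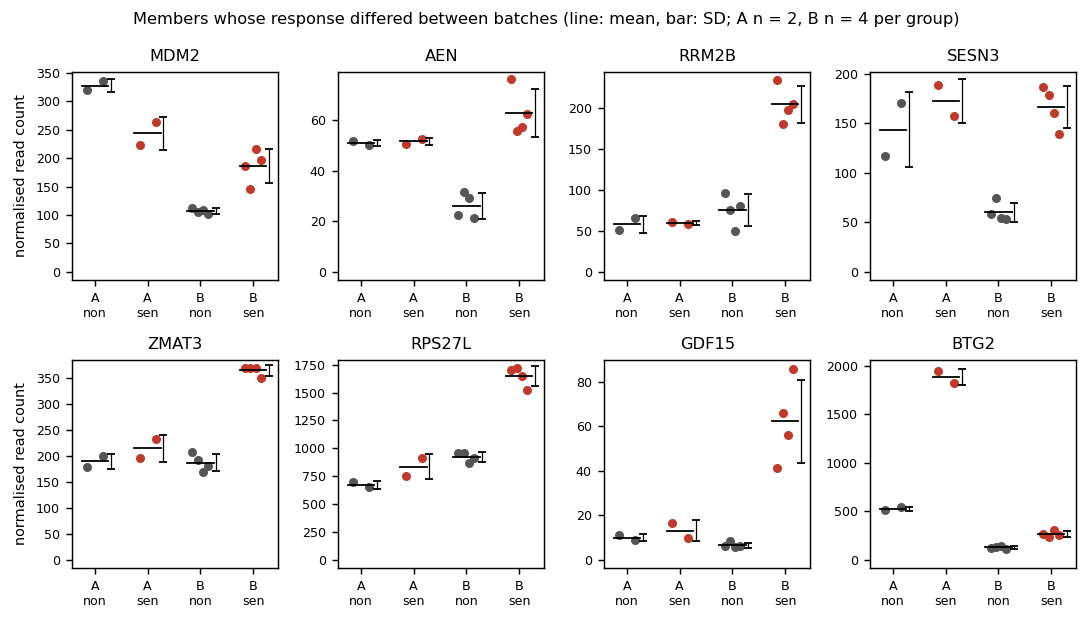
Normalised read counts per sample of the 8 members whose response differed between batches, for non-senescent (grey) and senescent (red) samples of batches A (n = 2 per group) and B (n = 4 per group), with the mean as a line and the SD as a bar. Non-senescent MDM2, AEN, SESN3 and BTG2 are higher in A than in B, and MDM2 is the member whose order of groups turns between the batches.

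The mean deviation of the 36 tested members from the non-senescent mean of their batch was 0.22 and 0.29 (log2) in the senescent libraries of A and 0.53 to 0.61 in those of B, while non-senescent libraries lay between -0.07 and 0.10. Members with large changes weigh most in this mean. The median deviation of senescent A2 was 0.04, under those of non-senescent A2 and B2 (0.05 each). In senescent A2, 20 of the 36 members were above the non-senescent mean. The non-senescent libraries had 11 (A1), 25 (A2), 15 (B1), 24 (B2), 14 (B3) and 15 (B4). With 2 non-senescent samples in A, their deviations mirror each other, so the values of A2 follow from those of A1. Among the 14 members called higher, the highest of the 4 senescent samples of B was B1 for 5, B2 for 5, B4 for 3 and B3 for 1.

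**Figure D5:**
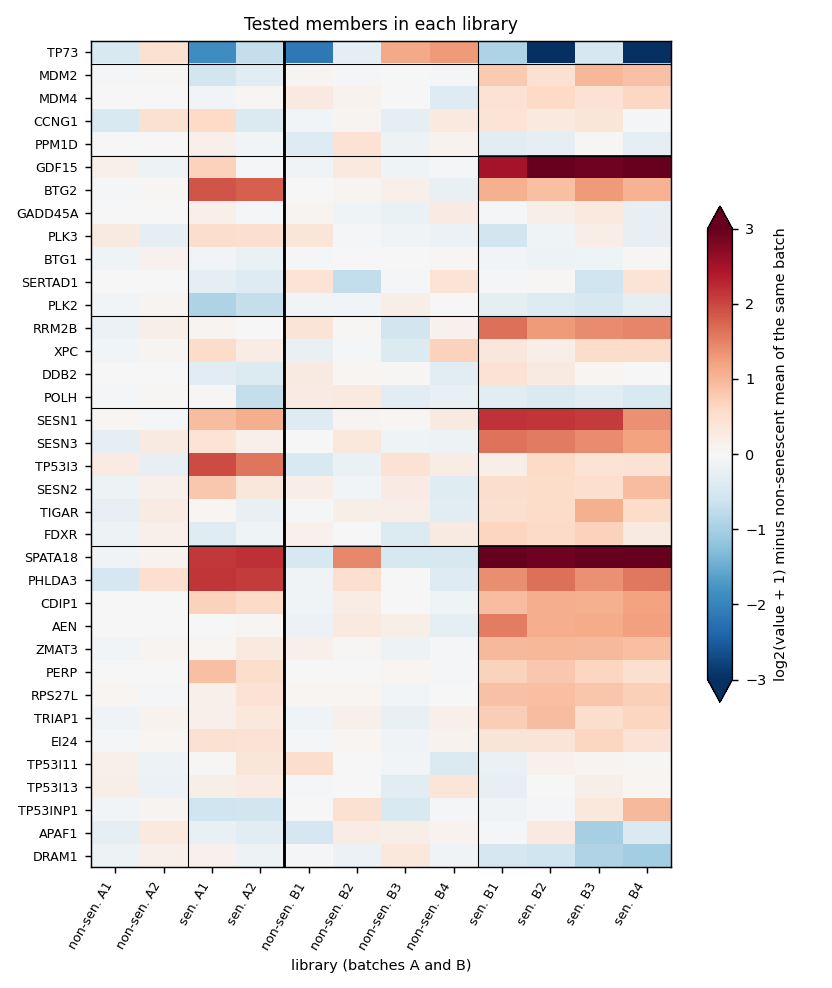
Value of each tested member (rows, by role) in each library (columns) as log2(normalised read count + 1) minus the non-senescent mean of the same batch. Senescent libraries of batch B are red for most metabolism and death genes, those of batch A for BTG2, TP53I3, PHLDA3, SPATA18 and SESN1 and paler elsewhere, and GDF15, SPATA18 and TP73 have values past the ends of the colour scale at 3 and -3.

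The rest of the pathway was read from the Hallmark p53 list that the study's methods name. Of its 166 genes that are no members here, 136 were tested. Of these, 29 (21.3%) were called higher and 10 (7.35%) lower, against 11.6% and 11.8% of all genes. The median log2 fold change was 0.10, and equal library totals gave 20 called higher and 13 lower. The largest rises were those of CDKN1A, which encodes the cell-cycle inhibitor p21 (3.92), NDRG1, a stress-responsive gene (2.83), and BMP2, a growth factor (2.31). Among the falls were PCNA, the sliding clamp of replication (-2.08, SE 0.08), and RAD51C, a recombination factor (-1.19, SE 0.08). Both are genes that dividing cells express. Of 25 p53 regulators such as kinases, acetyltransferases and ligases, all were tested, and the median was -0.08. Of these, 1 was called higher and 1 lower, which is 4% each. The lower one was the checkpoint kinase CHEK1, which went from a mean of 217 ± 38.9 to one of 86.0 ± 32.6 normalised read counts (SD, n = 6), or -1.41 ± 0.14 on the log2 scale (SE, limma adjusted p 4.6e-07). The higher one was PPP1R13B, a cofactor of p53 in apoptosis (0.61, adjusted p 0.0908).

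SESN2 and GDF15 are also targets of ATF4, the transcription factor of the integrated stress response. Of 16 listed ATF4 targets and partners, 1 was called higher and 3 lower, with a median log2 fold change of -0.09. That is 25% called, against 23.4% of all genes, and a part of ATF4 was not tested. The higher one was PPP1R15A, a phosphatase subunit of that response (0.65). The lower ones were the serine synthesis enzymes PSAT1 (-2.04) and PHGDH (-1.68) and the cystine transporter SLC7A11 (-0.94).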

How the data were processed

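The authors trimmed CEL-seq2 reads with Cutadapt, aligned them with GRCh38, quantified them with Salmon 0.13.1, and used DESeq2 with batch correction for normalisation and for their own comparison. The annotation and the use of molecular identifiers are not given in the sources used here, so intervals and floors cover counting error only. The deposited signal is read numbers divided by 1 size factor per sample. All 196021 non-zero values were whole multiples of the smallest value of their column (within 0.001 reads), so whole reads were recovered. The 6 deposited columns of pooled means, fold changes, errors, statistics and p-values were not used.

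log2(normalised read count + 1) was fitted with limma 3.58.1 (R 4.3.3, trend) with batch and group as terms for genes with a mean of at least 5. The pseudocount makes fold changes of low genes too small. p-values were Benjamini-Hochberg adjusted over all 13847 genes. Calls needed a change of more than 1.5-fold and an adjusted p under 0.1, the limits of the study. Nested and interaction fits used the same genes. edgeR 4.0.16 and DESeq2 1.42.0 were run on recovered reads as alternatives, and the fits were tested on simulated data. Replicate names did not pair samples (correlation of deviations of same-named samples -0.051 to 0.016).

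Members and lists were chosen with earlier results of these data known. Members were grouped by role. Per-sample values and full statistics were given for MDM2, MDM4, PPM1D, the 14 called members with the largest change and members with an interaction. Of other lists, the 3 largest called rises and falls with a mean of at least 20 were named, of which 1 is not reported here. Gene positions are from GENCODE v44 and promoters from RefSeq. The window of 2000 bases was added to the promoter window later.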

Additional observations from a re-analysis of the deposited data

Results flagged for a closer look

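In 6 of 72 groups of 4 batch B samples, 1 sample stood apart from the other 3 by Dixon's ratio on the log2 scale, and chance flags about 1 group in 20. The ratio was 0.898 for SESN1 in senescent replicate B4, which had 68.5 normalised read counts against 113 to 120.0 in the others. The same library stood apart for SESN2, with 994 against 744 to 761 (0.922), and for ZMAT3, with 349 against 368 to 369 (0.952). TIGAR was at 254 in senescent replicate B3 against 169.7 to 177 (0.897), and APAF1 at 43.7 in non-senescent replicate B1 against 67.1 to 73.0 (0.836). SPATA18 was at 2.75, or 2 reads, in non-senescent replicate B2 against 0 (1.00). With 0 reads in the other 3, any read number gives this ratio. The rate of chance flags does not apply to SPATA18 here.

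The response to senescence differed between batches, by the limma interaction, for 8 members. The log2 response in B less that in A was 2.69 for GDF15, 1.41 for RRM2B, 1.22 for AEN, 1.21 for MDM2, 1.17 for SESN3, 0.79 for ZMAT3, 0.54 for RPS27L and -0.77 for BTG2. Batch A was sequenced more deeply and its part in the difference was not tested.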

How the results depend on the processing

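Of 3237 genes called in all, 2143 were called without the batch term, 6301 without the fold change limit, 1416 at stricter limits (over 2-fold, adjusted p under 0.05), and 3142 to 3277 when 1 library was left out. The 15 called members became 8 in batch A alone and 17 in batch B alone, where all genes gave 3241 and 3327 calls and the other Hallmark genes 46 and 38. They became 7 at the stricter limits and 13 to 16 with a library left out, and under the other alternatives lay between 11 (no batch term) and 22 (no fold change limit). edgeR and DESeq2 each gave 15, the other 39 called Hallmark genes became 72 without the fold change limit and 17 at the stricter limits, and ranged from 35 to 41 with a library left out. The batch difference, passed by 583 genes and 8 members, was passed by 169 to 743 genes and 2 to 9 members with a library left out. Each library of batch A counts here: 261 genes and 5 members passed without non-senescent A1, 175 and 2 without A2, 183 and 2 without senescent A1 and 169 and 3 without A2. Fewer samples enter each of these fits. A fit with the replicate block gave 3211 genes and 15 members, and 36 Hallmark genes. Same-named samples share only a name.

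Some members that were not called changed sign. In batch A alone the log2 fold change was -0.43 for MDM2, -0.025 for MDM4, -0.57 for TP53INP1, -0.36 for DDB2, -0.24 for FDXR, -0.082 for TIGAR and 0.031 for PPM1D, and in batch B alone -0.18 for PLK3. With equal totals, which moved the median of all genes to -0.09, it was -0.028 for TP53I11, -0.032 for TP53I13, -0.10 for TP53INP1, -0.059 for GADD45A, -0.099 for DDB2 and -0.057 for PLK3. TP53INP1, DDB2 and PLK3 were at -0.13, -0.025 and -0.044 with edgeR and at -0.059, -0.026 and -0.025 with DESeq2, and the first of them at -0.17 and DDB2 at -0.11 with array weights. With a pseudocount of 8, TP53INP1 was at -0.018 and PLK3 at -0.00012. With TMM, TP53INP1 was at -0.0062 and DDB2 at -1.9e-06, and with the upper quartile at -0.0071 and -0.00079. Leaving out a library gave -0.0080 to 0.19 for TP53I11, -0.17 to 0.091 for TP53INP1, -0.0043 to 0.11 for GADD45A, -0.086 to 0.064 for DDB2 and -0.079 to 0.15 for PLK3.

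Calls lost under equal totals were those of SESN2, RPS27L and PERP, and under array weights those of ZMAT3, AEN and RPS27L. Calls gained were PLK2 under equal totals (-0.61), array weights (-0.60) and batch A alone (-0.82), DRAM1 under equal totals (-0.62), batch B alone (-0.76) and without non-senescent or senescent A1 (-0.61 each), TRIAP1 in batch B alone (0.71) and without non-senescent A2 or senescent A1 (0.61 each), and MDM2 (0.78) and TIGAR (0.66) in batch B alone. SESN2 also fell under the limit without non-senescent A1 or B4 or senescent A1 or B4, and TP53I3 with a pseudocount of 8. Without the batch term TP73, BTG2, SESN2 and PHLDA3 were lost. The cause of these changes was not tested. Low read numbers limit SPATA18, TP73, TP53I3 and FDXR most. They also limit GDF15, with 4 to 6 reads in each non-senescent library of B, and PHLDA3, with 4 and 7 in those of A.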

Other observations

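Non-senescent levels of several members differed between the batches by more than the groups did within a batch. TP53INP1 was at 446 and 495 normalised read counts in non-senescent samples of batch A and at 32.1 to 61.9 in those of batch B, a ratio of means of 10.3. PLK3 was at 15.6 and 10.3 in A and at 144 to 209 in B, a ratio of 0.0785. TP53I11 had a ratio of 0.113, PHLDA3 of 0.136 and DRAM1 of 0.176, all lower in A. Batch cannot be told apart from preparation, sequencing depth or culture in these values.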
